A study of Mus musculus with 8 samples.

Results

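The genes described here encode 10 ATPases of chromatin remodeling complexes other than BAF (mSWI/SNF): Chd3, Chd4, Chd5, Chd7 and Chd8 of the CHD family, Smarca1 and Smarca5 of the ISWI family, Ino80 and Ep400 of the INO80 family, and the related ATPase Hells. They were chosen by name and family, with earlier results of these data known. All 10 were found among the 48709 genes listed in the count files and among the 16525 that passed a filter on low counts and were tested. In the mutant mice BAF155 and BAF170, the core proteins on which BAF complexes are built, were deleted together from the developing forebrain, and RNA sequencing of whole cortex was used to ask which genes then change. The tissue was P3 cortex, given in the methods as dorsal telencephalon, of C57BL/6J mice: 4 dcKO_hGFAP-Cre samples (called dcKO below) and 4 control samples. Per the methods, the dcKO mice carried BAF155 fl/fl, BAF170 fl/fl and hGFAP-Cre, and the controls BAF155 fl/+, BAF170 fl/+ and the same Cre, so that both groups express Cre, whereas the labels call the controls wild types. In hGFAP-Cre mice a human GFAP promoter drives the recombinase, mainly in radial glia of the dorsal telencephalon, so cells of other origin that lie in the dissected cortex are not its main targets. The samples are described as control and mutant cortices, with no statement in the sources used here on litters, so p-values measure only the spread between these samples.

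Chromatin remodelers use ATP to slide, evict or exchange nucleosomes, and a gene is read or kept silent partly by where its nucleosomes lie. CHD3, CHD4 and CHD5 are alternative motors of the NuRD complex, which joins nucleosome remodeling to histone deacetylation, while ISWI motors space nucleosomes evenly and INO80-type motors move or exchange the histone variant H2A.Z. In the developing cortex these enzymes act alongside BAF as progenitors turn into neurons and glia, and mutations in CHD4, CHD7 and CHD8 cause human neurodevelopmental syndromes.

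The control libraries, replicates 1 to 4, held 22106718, 21126713, 31805395 and 30553135 counts, and the dcKO libraries held 22002784, 22812236, 28249608 and 32110285. Lane 5 carried replicates 1 and 2 of both groups, lane 6 carried both replicates numbered 3, and lane 7 both numbered 4. Some dcKO libraries stood apart in transcripts of particular cell types. The choroid plexus transcript Ttr was at 3.18, 9.37, 0.0664 and 1.8 CPM in control replicates 1 to 4 and at 584, 1128, 15.8 and 1.72 CPM in dcKO replicates 1 to 4, where CPM stands for counts-per-million after TMM scaling of the library sizes, which sets the libraries to a shared level through the bulk of their genes. The astrocyte gene Gfap was at 89.5, 86, 79.3 and 86.2 CPM in the controls and at 24.2, 32.2, 273 and 26.2 CPM in the dcKO samples. Thus dcKO replicates 1 and 2 were high in Ttr and dcKO replicate 3 was high in Gfap, and many calls below change without them. Reads assigned to mitochondrial genes made up 3.21, 3.23, 2.06 and 2.60% of the counts in the controls and 3.59, 5.47, 4.27 and 3.57% in the dcKO samples, with no overlap between the groups. The part of this share in the results below was not tested.

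Smarcc1, which encodes BAF155, was at 144, 162, 170.5 and 160.4 CPM in the controls and at 79.4, 73.6, 86.9 and 84.7 CPM in the dcKO samples. Smarcc2, which encodes BAF170, was at 500.3, 472, 489 and 469 CPM in the controls and at 291, 266, 256 and 319 CPM in the dcKO samples. Every dcKO sample was below every control for both genes, in the direction of the labels, and RNA from both genes remained. The log2 fold changes, dcKO minus control, were -0.97 (SE 0.082, adjusted p = 5.44e-06) for Smarcc1 and -0.77 (SE 0.079, adjusted p = 2.28e-05) for Smarcc2 in edgeR's quasi-likelihood test. Here and below p-values are adjusted by the Benjamini-Hochberg method over all 16525 genes, and a gene is called lower or higher when its adjusted p is under 0.05. In bulk tissue fewer cells of a type and less RNA per cell cannot be told apart, for these genes and for all that follow.

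Of the 10 remodeler genes, 1 was called lower in dcKO cortex, Chd4, which fell by 25.6%, and 0 were called higher. Over all genes tested 18.9% were called lower and 18.6% were called higher. By edgeR 1 of the 10, Hells, was higher at an unadjusted p under 0.05, and DESeq2 and limma-voom also called 0 of the 10 higher. The median log2 fold change of the 10 genes was 0.014, beside 0.024 over all genes tested. It was 0.059 without dcKO replicate 3, -0.048 without dcKO replicate 4 and -0.0038 in DESeq2, so its sign is not settled. The groups did not overlap in CPM for 1 of the 10, again Chd4, whereas they did not overlap for 34.4% of all genes tested. These values rest on TMM scaling. When library totals were used in its place, the median over all genes rose by 0.12 on the log2 scale, and genome-wide calls went from 3128 lower and 3074 higher to 2108 lower and 4579 higher. Chd7, Smarca1 and Hells were then called higher as well, with log2 fold changes of 0.37, 0.34 and 0.42, while Chd4 stayed lower at -0.30.

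Levels were compared between genes per length, as RPKM, the CPM divided by the length in kilobases of all annotated exons of the gene. In control cortex the order ran from Chd3 (95.7 ± 1.97 RPKM, SD, n = 4) through Chd5 (37.1 ± 0.731) and Chd4 (29.5 ± 2.42) to Ep400 (10.9 ± 0.466) and Smarca1 (9.41 ± 0.65). Below these came Chd8 (8.41 ± 0.443 RPKM, SD, n = 4), Ino80 (6.98 ± 0.437), Smarca5 (3.29 ± 0.437), Chd7 (2.04 ± 0.384) and Hells (1.37 ± 0.164). On this scale the NuRD motors were thus the most abundant of the set, and Hells, a gene of dividing cells, the least. Among neighbours in this order, Smarca1 and Chd8 overlapped over the control samples and no other pair did. In dcKO cortex the order was the same except that Smarca1 (10.9 ± 1.47 RPKM) and Ep400 (10.7 ± 1.16 RPKM) changed places. There the ranges of Smarca1, Ep400, Chd8 and Ino80 overlapped from each to the next. The exon length counts every annotated isoform, so a gene with long, rarely used exons is set too low on this scale. Hells has 7205 bases of exon and 2463 of coding sequence, and Chd7 has 13786 and 8958. Per coding length the mean of Chd7 would lie below Hells, and Smarca1 and Chd8 above Ep400, while the NuRD motors would stay on top.

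**Figure D1:**
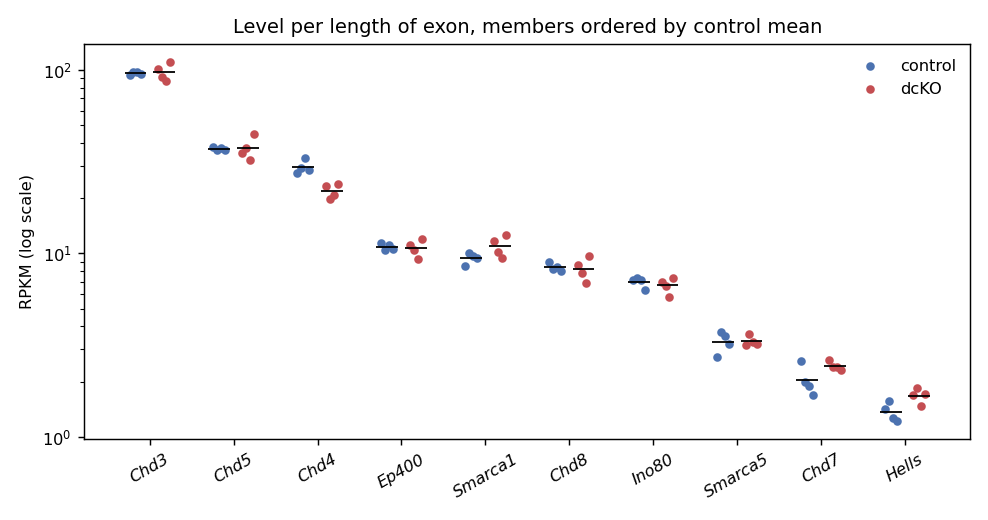
Level per length (RPKM, log axis) of the 10 remodeler genes in each library, ordered by the control mean; points are samples, 4 a group, and lines are group means. Per length of exon, Chd3 lies highest in every library and Hells lowest, and Chd4 is the one gene whose dcKO points all lie under its control points.

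Chd4, the broadly expressed NuRD motor that progenitors depend on, lies in mm10 on chromosome 6 from 125095981 to 125130591 (ENSMUSG00000063870, plus strand). It was at 219, 234, 264 and 228 CPM in control replicates 1 to 4 and at 186, 159, 167 and 191 CPM in dcKO replicates 1 to 4. All 4 dcKO samples were below all 4 controls, with control replicate 3 the highest sample and dcKO replicate 2 the lowest. The means were 236 ± 19.4 CPM and 176 ± 15.2 CPM (SD, n = 4 each), and the log2 fold change was -0.43 (SE 0.086, 95% interval -0.61 to -0.24, adjusted p = 0.00236 in edgeR's test). An exact two-sided permutation test of the CPM gave p = 0.0286, the smallest that 4 samples against 4 allow. Within lanes the log2 ratio of the mean CPM was -0.39 on lane 5, which held 2 samples of each group, -0.66 on lane 6 and -0.25 on lane 7, which held 1 of each. Without dcKO replicates 1 and 2 the log2 fold change was -0.40 (edgeR adjusted p = 0.0325), an alternative chosen after the data were seen, and over all 17 alternatives adjusted p ran from 4.49e-05 to 0.0325.

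Chd3, a NuRD motor used late in the radial migration of cortical neurons, lies on chromosome 11 from 69343273 to 69369406 (ENSMUSG00000018474, minus strand). It was at 788, 825, 818 and 801 CPM in the controls and at 851, 774, 738 and 933 CPM in the dcKO samples, which lay on both sides of the controls. The log2 fold change was 0.028 (95% interval -0.14 to 0.20, edgeR adjusted p = 0.803). Chd5, the NuRD motor most restricted to neurons, lies on chromosome 4 from 152338651 to 152390194 (ENSMUSG00000005045, plus strand). It was at 362, 351, 361 and 348 CPM in the controls and at 338, 359.8, 308 and 427 CPM in the dcKO samples. The controls were close together and the dcKO samples lay around them, with replicate 4 high and replicate 3 low. Its log2 fold change was 0.012 (95% interval -0.19 to 0.21, edgeR adjusted p = 0.932). For Chd3 and Chd5 the intervals leave room for changes of up to about 0.2 in either direction, and the sign of both estimates turned when dcKO replicate 4 was left out, to -0.024 and -0.071. That of Chd5 also turned without control replicate 4, to -0.0055.

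**Figure D2:**
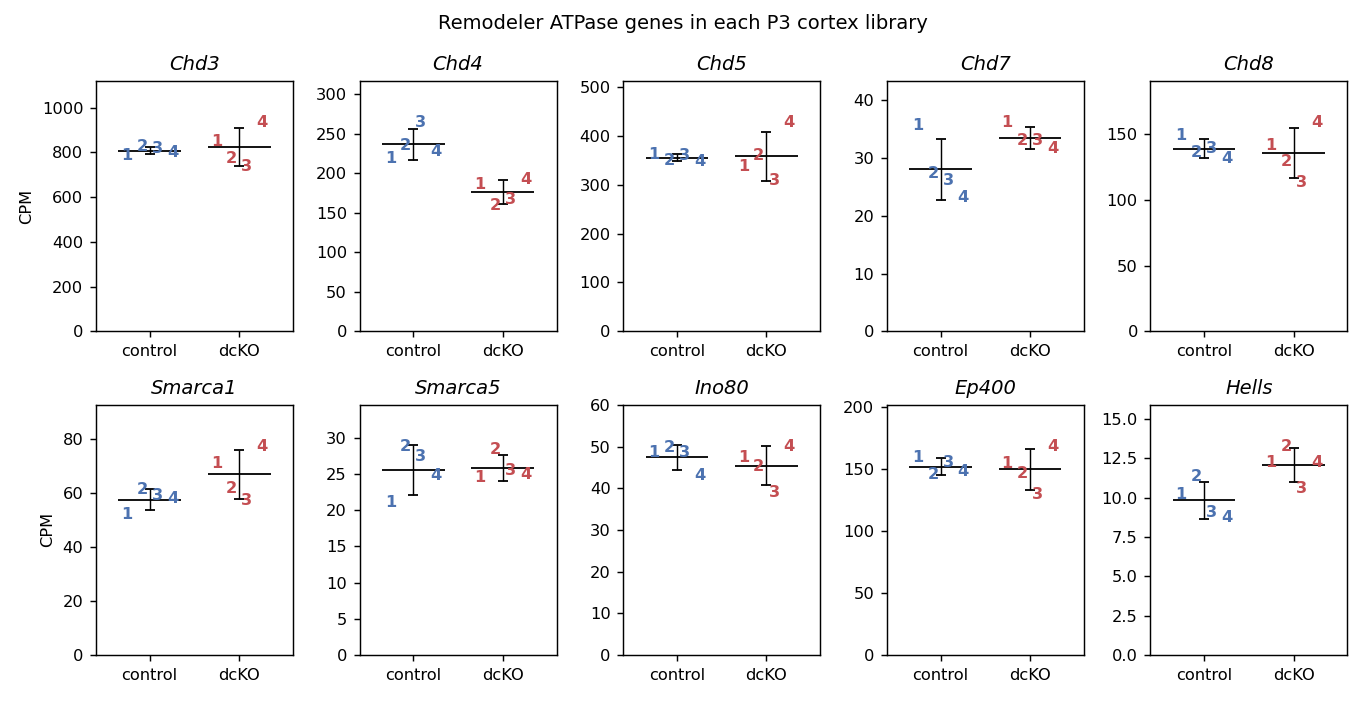
CPM (vertical axis from 0) of each remodeler gene in every library, each point drawn as its replicate number, with group mean and SD (n = 4). Chd4 is lower in all 4 dcKO samples, whereas for the other 9 genes the groups overlap; dcKO replicate 4 is often the highest and dcKO replicate 3 often the lowest of its group.

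Since CHD3, CHD4 and CHD5 compete for the same place in NuRD, each gene's RPKM was also taken as a percent of the sum of these genes in the same library. In order of replicate, Chd4 made up 17.2, 17.9, 19.6 and 17.8% in the controls and 14.6, 13.3, 14.8 and 13.3% in the dcKO samples, with no overlap. Chd3 made up 58.9, 59.7, 57.9 and 59.4% in the controls and 63.3, 61.5, 62.2 and 61.7% in the dcKO samples, again with no overlap and in the other direction. Chd5 made up 23.8, 22.4, 22.5 and 22.8% in the controls and 22.2, 25.2, 22.9 and 24.9% in the dcKO samples, where the groups overlapped. The mean share of Chd4 was 18.1 ± 1.04% in control and 14 ± 0.797% in dcKO cortex (SD, n = 4 each). Such shares do not depend on how libraries are scaled, and as shares of a sum they must move against each other, so the higher share of Chd3 is not a higher level of Chd3.

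**Figure D3:**
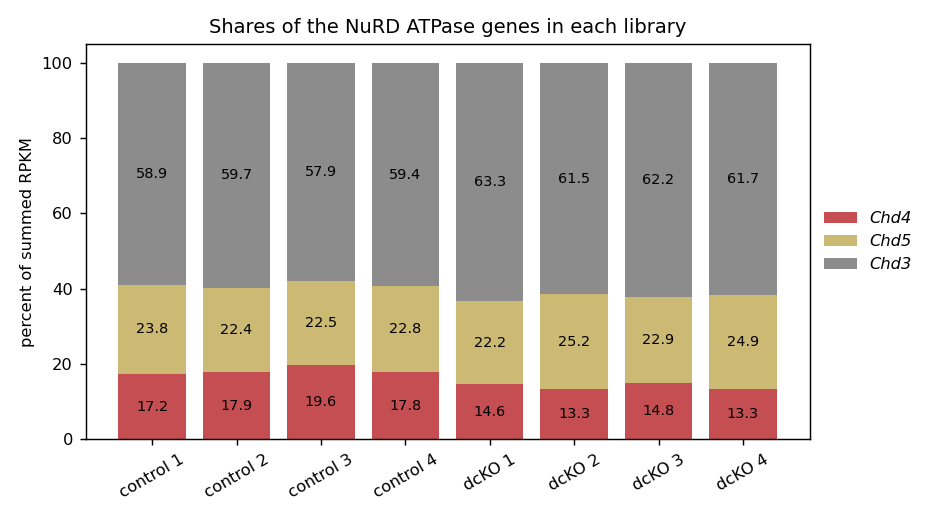
Percent of the summed RPKM of Chd3, Chd4 and Chd5 taken by each gene in each of the 8 libraries (stacked bars, vertical axis from 0 to 100). The Chd4 part is 17.2 to 19.6% in the controls and 13.3 to 14.8% in the dcKO samples.

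Among the other NuRD genes there were calls in both directions. Of 12 non-motor subunits, 2 were called lower, 3 higher and 7 neither, with a median log2 fold change of 0.044. The called shares were 16.7% lower and 25% higher, beside 18.9% and 18.6% over all genes tested. The genes called lower were Gatad2a and Gatad2b, the alternative GATAD2 subunits that hold the CHD motor to the deacetylase core. Gatad2b was at 129, 142, 143 and 126 CPM in the controls and at 91.3, 85.1, 89.7 and 98.1 CPM in the dcKO samples (log2 fold change -0.57, SE 0.077, edgeR adjusted p = 0.000162). Gatad2a was at 50.7, 49.4, 55.3 and 55.1 CPM in the controls and at 35.2, 40.6, 38.4 and 40.9 CPM in the dcKO samples (log2 fold change -0.44, SE 0.084, edgeR adjusted p = 0.00158). For both genes every dcKO sample was below every control, as for Chd4, and both were called lower in all 17 alternatives. The genes called higher were Rbbp4, Rbbp7 and Hdac1, of the histone chaperones and deacetylases that NuRD shares with other complexes. Rbbp4, the most abundant of the 12 by CPM in dcKO cortex (Hdac2 was in control, at 220.2 CPM), went from 197 ± 17.3 CPM in control to 259 ± 28.2 CPM in dcKO cortex (mean ± SD, n = 4 each; log2 fold change 0.39, edgeR adjusted p = 0.00594). Hdac1 went from 6.64 ± 1.7 CPM in control to 10.8 ± 1.75 CPM in dcKO cortex (mean ± SD, n = 4 each; log2 fold change 0.70, edgeR adjusted p = 0.0113). The Hdac1 value is uncertain, as 35.5% of its 50-base windows also occur in transcripts of other genes, mostly Gm10093, and the same holds for 17.2% of Rbbp4 and 11.2% of Rbbp7. Rbbp7 (0.20, edgeR adjusted p = 0.0470) lost its call when any 1 of the libraries other than dcKO replicate 4 was left out (log2 fold changes 0.17 to 0.22) and without dcKO replicates 1 and 2 together (0.18). With the lane or the replicate number as a block, 2 of the 12 were called higher in place of 3. DESeq2 and edgeR without a filter also called 2 higher.

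The promoter windows of the NuRD genes that fell, Chd4, Gatad2a and Gatad2b, are printed beside that of Chd5, which was not called. They run from 250 bases before to 50 bases after the start in the RefSeq promoter table (GRCm38.p6, the build also called mm10), which holds 8 of the 10 remodeler genes; Chd3 and Chd7 are the others. The windows are chr6:125095731-125096030 (plus strand), chr4:152338401-152338700 (plus strand), chr8:69996335-69996634 (minus strand) and chr3:90292931-90293230 (plus strand), the first listed for each gene. Capitals mark the GC box GGGCGG and the CCAAT box CCAAT, each on either strand, so that CCGCCC and ATTGG are capitals too.
Chd4: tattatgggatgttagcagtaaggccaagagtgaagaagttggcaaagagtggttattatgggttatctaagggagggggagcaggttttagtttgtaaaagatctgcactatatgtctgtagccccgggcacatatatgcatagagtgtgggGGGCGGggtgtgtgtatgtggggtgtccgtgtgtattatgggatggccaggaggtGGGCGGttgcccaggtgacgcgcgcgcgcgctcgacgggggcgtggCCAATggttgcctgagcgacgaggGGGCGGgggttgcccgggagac
Chd5: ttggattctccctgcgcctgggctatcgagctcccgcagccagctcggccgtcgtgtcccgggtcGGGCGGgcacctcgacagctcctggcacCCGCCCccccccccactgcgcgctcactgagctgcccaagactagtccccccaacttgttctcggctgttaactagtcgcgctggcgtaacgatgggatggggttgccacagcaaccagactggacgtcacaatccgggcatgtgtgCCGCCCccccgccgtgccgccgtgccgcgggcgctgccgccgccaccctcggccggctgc
Gatad2a: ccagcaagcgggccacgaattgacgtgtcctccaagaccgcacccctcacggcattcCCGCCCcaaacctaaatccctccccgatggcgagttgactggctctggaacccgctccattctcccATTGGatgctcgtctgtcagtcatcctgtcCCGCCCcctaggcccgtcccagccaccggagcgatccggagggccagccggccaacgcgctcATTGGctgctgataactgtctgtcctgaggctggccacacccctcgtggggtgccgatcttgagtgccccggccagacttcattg
Gatad2b: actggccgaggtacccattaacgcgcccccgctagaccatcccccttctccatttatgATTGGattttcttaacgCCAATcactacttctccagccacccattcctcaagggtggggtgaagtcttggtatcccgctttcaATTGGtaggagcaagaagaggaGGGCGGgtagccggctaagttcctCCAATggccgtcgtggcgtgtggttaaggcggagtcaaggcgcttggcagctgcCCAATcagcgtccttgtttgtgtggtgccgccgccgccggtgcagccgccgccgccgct
GGGCGG occurred 3 times in the Chd4 window, 3 times in that of Chd5, 2 times in that of Gatad2a and 1 time in that of Gatad2b, and it is held by 35.7% of the 32851 promoter windows. CCAAT occurred 1 time in the Chd4 window, 2 times in that of Gatad2a, 5 times in that of Gatad2b and 0 times in that of Chd5, and it is held by 37.4% of all windows. On either strand, none of these windows held the TATA box TATAAA (13.6% of all windows), the E-box CACGTG (7.15%), the NRF1-type motif GCGCATGC (2.71%), the ETS-type motif CCGGAAGT (3.89%) or the E2F-type motif TTTGGCGC (0.514%). No matched letters overlapped. Some other windows in the table differ: a second Gatad2a window holds CCAAT 0 times and GGGCGG 4 times, and a second Gatad2b window holds each 1 time. The second windows of Chd4 and Chd5 hold GGGCGG and CCAAT as often as those printed. Among the remodeler genes not called, the first windows of Chd8, Smarca1 and Ino80 hold CCAAT 1 time each and those of Chd5, Smarca5, Ep400 and Hells 0 times. The GC content was 57, 70.7, 64 and 59.3% in the order printed, beside a median of 52.7% over all windows.

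By Pearson's r of log2 CPM over the 8 samples, the genes most like Chd4 were Lrrc8d (r = 0.995), Ptprj (0.992), Snx19 (0.992), Slc23a2 (0.991) and Washc5 (0.991), a volume-regulated anion channel subunit, a receptor phosphatase, a sorting nexin, an ascorbate transporter and a subunit of the WASH complex. All of these were called lower, with log2 fold changes from -0.63 to -0.31, so much of r is the difference between the groups that they share with Chd4.

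Chd7 and Chd8 belong to the CHD subfamily whose members bind enhancers and promoters of developmental genes. Chd7, the gene mutated in CHARGE syndrome, lies on chromosome 4 from 8690406 to 8867659 (ENSMUSG00000041235, plus strand). It was at 35.6, 27.3, 26.1 and 23.2 CPM in the controls and at 36.1, 33, 33.1 and 31.7 CPM in the dcKO samples. Control replicate 1 lay among the dcKO samples, while the other 3 controls lay below all 4 of them. The log2 fold change was 0.26 (SE 0.12, 95% interval -0.0077 to 0.52, edgeR adjusted p = 0.115), which did not pass the threshold. Without control replicate 1 it was 0.39 (edgeR adjusted p = 0.0107) and was called higher, so 1 library decides this call. Over its 17 alternatives adjusted p ran from 0.0107 to 0.422.

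Chd8, a gene often mutated in autism, lies on chromosome 14 from 52198151 to 52257780 (ENSMUSG00000053754, minus strand). It was at 132 to 149 CPM in the controls and at 113 to 159 CPM in the dcKO samples, which lay around the controls. Its estimate on the log2 scale was -0.032 (95% interval -0.25 to 0.18, edgeR adjusted p = 0.821), and its sign turned with library totals (0.087) and without dcKO replicate 3 (0.043). Its partners ASH2L, WDR5, RBBP5 and DPY30 form the core of histone H3K4 methyltransferases. Of these 4 genes, 0 were called lower by edgeR, DESeq2 or limma-voom and 0 were lower at an unadjusted p under 0.05 in edgeR, and 1, Dpy30, was called higher. Over all genes tested 18.9% were called lower and 18.6% higher. Dpy30 went from 32.8 ± 1.95 CPM in control to 50.2 ± 4.8 CPM in dcKO cortex (mean ± SD, n = 4 each; log2 fold change 0.61, edgeR adjusted p = 0.000318), with every dcKO sample above every control. Ash2l, the most abundant of them by CPM, had a log2 fold change of -0.030 (95% interval -0.18 to 0.12), and the median of the 4 was -0.017.

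**Figure D4:**
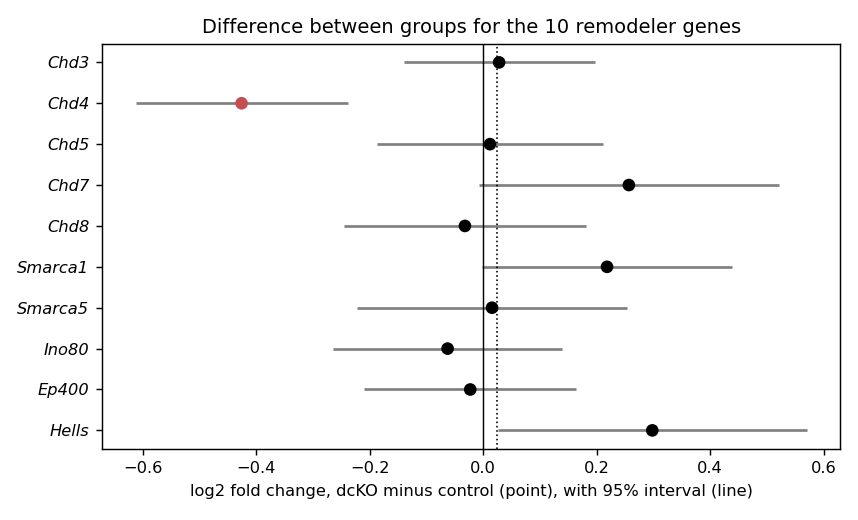
Log2 fold change, dcKO minus control, of each remodeler gene (point) with its 95% interval (line), from the edgeR fit of 4 against 4 samples; the dotted line is the median over all genes tested, 0.024. Only the interval of Chd4 (coloured) lies wholly under 0; that of Hells lies above 0, with an adjusted p over 0.05.

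The ISWI motors SNF2L and SNF2H are encoded by Smarca1 and Smarca5, the first rising as neurons differentiate and the second used by dividing progenitors. Smarca1 lies on chromosome X from 47809368 to 47892974 (ENSMUSG00000031099, minus strand). It was at 52, 61.2, 59.2 and 57.9 CPM in the controls and at 71.1, 61.9, 57.4 and 77.3 CPM in the dcKO samples. Of the dcKO samples 3 lay above all controls and replicate 3 lay among them. The log2 fold change was 0.22 (SE 0.10, 95% interval -0.0024 to 0.44, edgeR adjusted p = 0.109). Without dcKO replicate 3, the library high in Gfap, it was 0.28 (edgeR adjusted p = 0.0353) and was called higher; over its 17 alternatives adjusted p ran from 0.0177 to 0.264.

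Smarca5 lies on chromosome 8 from 80698507 to 80739497 (ENSMUSG00000031715, minus strand). It was at 21.1 to 28.8 CPM in the controls and at 24.5 to 28.4 CPM in the dcKO samples, inside the range of the controls. Its log2 fold change was 0.015 (95% interval -0.22 to 0.25, edgeR adjusted p = 0.925). It turned negative without dcKO replicate 2 (-0.038) and without control replicate 1 (-0.070) or 4 (-0.0063). Its count is uncertain, since 28.2% of its 50-base windows also occur in transcripts of other genes, chiefly Gm13135; among the other remodeler genes this share was 4.72% for Chd8, 4.14% for Ep400 and at most 0.618% for the rest. Smarca1 made up 75.8, 73, 73.2 and 74.8% of the summed RPKM of the pair in the controls and 78.7, 73.5, 74.1 and 79.7% in the dcKO samples. The groups overlapped, so no shift between the ISWI motors was seen beyond the spread of the samples.

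Of 9 genes for ISWI partner subunits, 3 were called higher and 6 were not called. The share called higher was 33.3%, beside 18.6% higher and 18.9% lower over all genes tested. By edgeR 0 were called lower, with 1, Bptf, lower at an unadjusted p under 0.05, while DESeq2 called 0 and limma-voom 0 lower. The median log2 fold change was 0.17. Cecr2, the bromodomain partner of SNF2L and SNF2H in the CERF complex, went from 5.37 ± 1.46 CPM in control to 10.2 ± 1.75 CPM in dcKO cortex (mean ± SD, n = 4 each; log2 fold change 0.94, edgeR adjusted p = 0.00271), with every dcKO sample above every control. The histone-fold subunits of the CHRAC complex were higher too. Chrac1 had a log2 fold change of 0.68 (SE 0.15, edgeR adjusted p = 0.00411) and Pole3, which also serves DNA polymerase epsilon, one of 0.37 (SE 0.10, edgeR adjusted p = 0.0110). Without dcKO replicates 1 and 2, those high in Ttr, neither was called, at 0.48 and 0.28, whereas Cecr2 was still called, at 0.84. Bptf, the NURF scaffold and the most abundant partner by CPM, was at 131 ± 13.1 CPM in control and 112 ± 13 CPM in dcKO cortex (mean ± SD, n = 4 each). Its log2 fold change was -0.23 (95% interval -0.45 to -0.020, edgeR adjusted p = 0.0800), and it was called lower without dcKO replicate 4 (-0.27) or control replicate 1 (-0.29).

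Ino80, the motor of the INO80 complex, lies on chromosome 2 from 119373042 to 119477687 (ENSMUSG00000034154, minus strand). It was at 43.1 to 49.7 CPM in the controls and at 39.1 to 50.1 CPM in the dcKO samples, around the controls. Its log2 fold change was -0.063 (95% interval -0.27 to 0.14, edgeR adjusted p = 0.626), and it turned positive with library totals (0.057) and, barely, without dcKO replicate 3 (0.00056). Of 14 other INO80 subunits 1 was called lower, 2 higher and 11 neither, with a median of 0.022. The called shares were 7.14% lower and 14.3% higher, beside 18.9% and 18.6% over all genes tested. The called genes encode actin-related proteins: Actr5 (0.49, SE 0.13, edgeR adjusted p = 0.0128) and Actl6a (0.47, SE 0.12, edgeR adjusted p = 0.0115) were called higher and Actr8 (-0.31, SE 0.11, edgeR adjusted p = 0.0462) lower. ACTL6A, or BAF53A, is also the subunit that BAF complexes of neural progenitors exchange for another when neurons form. Its gene shares 10.2% of its 50-base windows with other genes, nearly all with overlapping Mrpl47 (10.05%), so part of its count may belong there. Actr8 passed the threshold in 5 of 17 alternatives, with adjusted p from 0.0126 to 0.180, and missed it without each of the dcKO libraries and without control replicate 3 or 4, at log2 fold changes from -0.34 to -0.22. Actr5 and Actl6a missed it without dcKO replicates 1 and 2 together, at 0.30 and 0.38, where edgeR called 0 of the 14 in either direction. Nfrkb, the most abundant of these subunits by CPM, had a log2 fold change of 0.053 (95% interval -0.17 to 0.28).

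Ep400, the H2A.Z-exchanging motor of the TIP60-EP400 complex, lies on chromosome 5 from 110664373 to 110770717 (ENSMUSG00000029505, minus strand). It was at 145 to 159 CPM in the controls and at 129.5 to 168 CPM in the dcKO samples, which again lay around the controls. On the log2 scale the change was -0.023 (95% interval -0.21 to 0.16, edgeR adjusted p = 0.855), 0.10 with library totals and 0.038 without dcKO replicate 3. Of 15 subunits of the TIP60-EP400 and SRCAP complexes 5 were called higher, 1 lower and 9 neither, with a median of 0.16 (0.083 to 0.19 with 1 library left out, lowest without control replicate 2, and 0.073 without dcKO replicates 1 and 2). The called shares were 33.3% higher and 6.67% lower, beside 18.6% and 18.9% over all genes tested. Without dcKO replicate 3, 6 were called higher. The sign was positive for 14 of the 15, though for many by less than the shift between the ways of scaling. The median over all genes tested was 0.024, and their share of positive signs was not taken. Actr6, an actin-related subunit of SRCAP, went from 26.8 ± 2.09 CPM in control to 40.6 ± 3.05 CPM in dcKO cortex (mean ± SD, n = 4 each; log2 fold change 0.60, edgeR adjusted p = 0.000432), and was called higher in all 17 alternatives. Yeats4, a reader of acetylated histones (0.34, edgeR adjusted p = 0.00920), and Vps72, the H2A.Z chaperone of both complexes (0.31, edgeR adjusted p = 0.0102), rose as well. The remaining called genes, named after their values were seen, were Mrgbp (0.30, edgeR adjusted p = 0.0166) and Mbtd1 (0.25, edgeR adjusted p = 0.0307). Without dcKO replicates 1 and 2 only Actr6 of these was called, at 0.58. Mrgbp missed the threshold without dcKO replicate 2 (0.24) or control replicate 3 (0.28), and Mbtd1 without dcKO replicate 1 (0.19) or any 1 control (0.24 to 0.25). Ing3, a reader of methylated H3K4, was the gene called lower (-0.36, SE 0.11, edgeR adjusted p = 0.0197), and it missed the threshold without dcKO replicate 4 (-0.28) or control replicate 2 (-0.33) or 3 (-0.33), without dcKO replicates 1 and 2 together (-0.42) and with library totals (-0.24). Trrap, the most abundant by CPM in control (Meaf6 was in dcKO cortex), had a log2 fold change of 0.0057 (95% interval -0.18 to 0.20).

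Hells, or LSH, an ATPase that opens nucleosomal DNA to methylation and is made mostly by dividing cells, lies on chromosome 19 from 38930915 to 38971051 (ENSMUSG00000025001, plus strand). It was at 10.2, 11.3, 9.06 and 8.75 CPM in the controls and at 12.2, 13.3, 10.6 and 12.3 CPM in the dcKO samples. Of the dcKO samples 3 lay above all controls and replicate 3 lay below control replicate 2 only. The log2 fold change was 0.30 (SE 0.13, 95% interval 0.025 to 0.57, edgeR adjusted p = 0.0800), the largest positive estimate of the 10 in this fit, and it did not pass the threshold. Without dcKO replicate 3 it was 0.35 (edgeR adjusted p = 0.0475) and was called higher; over its 17 alternatives adjusted p ran from 0.0218 to 0.394. Of 6 genes for its DNA methylation partners 1 was called higher and 5 were not called, with a median of 0.15. The share called higher was 16.7%, beside 18.6% higher and 18.9% lower over all genes tested. Of the 6, 0 were called lower by edgeR, DESeq2 or limma-voom, and 0 were lower at an unadjusted p under 0.05 in edgeR. With dcKO replicate 4 left out, 1 was called lower. The gene called higher was Cdca7l, a relative of the HELLS activator CDCA7, which went from 2.75 ± 0.277 CPM in control to 5.15 ± 0.562 CPM in dcKO cortex (mean ± SD, n = 4 each; log2 fold change 0.91, edgeR adjusted p = 0.000982). It shares 20.8% of its 50-base windows with other genes, mostly overlapping Dnah11. Dnmt3a, the de novo methyltransferase and the most abundant of these by CPM, had a log2 fold change of -0.059 (95% interval -0.30 to 0.18).

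Since Hells is made mostly by dividing cells, markers of proliferation were set beside it. Of 14 such markers 4 were called higher, Mcm7 (0.40), Bub1 (0.58), Cdk1 (0.43) and Pcna (0.27), the last named after its value was seen, and 10 were not called. The share called higher was 28.6%, beside 18.6% over all genes tested. With any 1 library left out edgeR called from 2 to 5 of the 14 higher, and without dcKO replicates 1 and 2 together it called 0. By edgeR, DESeq2 and limma-voom 0, 0 and 0 were called lower, and 0 were lower at an unadjusted p under 0.05 in edgeR. Their median was 0.14 (0.070 without dcKO replicate 2), and their summed level was 374, 345, 360.1 and 333 CPM in the controls and 374, 384, 397 and 356 CPM in the dcKO samples, which overlapped. The most abundant, Top2a, had a log2 fold change of -0.027 (95% interval -0.23 to 0.18). The part of dividing cells in the Hells values was not tested.

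**Figure D5:**
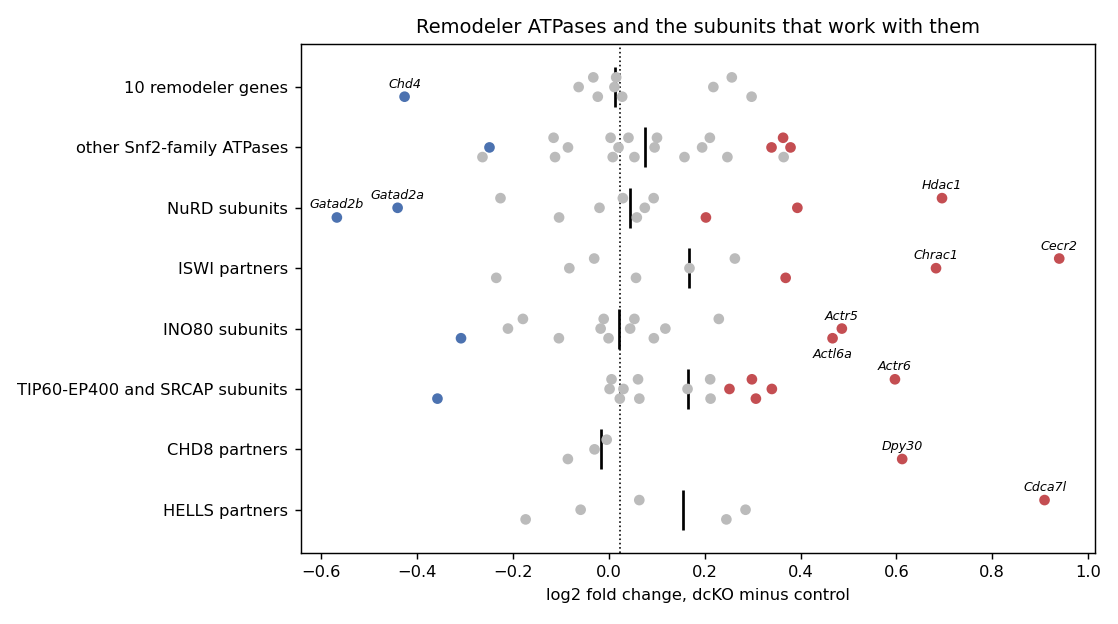
Log2 fold change, dcKO minus control, of every gene in the remodeler lists (points; blue called lower, red called higher, grey not called), with the median of each list (black tick) and of all genes tested (dotted line, 0.024). Called points are mostly red among the partner subunits and the NuRD list holds both colours, with Gatad2b at -0.57 and Hdac1 at 0.70.

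Over the union of these lists, 60 partner subunits, 4 were called lower, 15 higher and 41 neither, beside 18.9% lower and 18.6% higher over all genes tested. The median was 0.060, and the groups did not overlap for 15 of the 60, beside 34.4% of all genes tested. Without dcKO replicates 1 and 2 the counts were 2 lower and 6 higher, and genome-wide calls fell as well, to 1581 lower and 1388 higher, with 2 dcKO samples left in the fit. Calls also ran with transcript length. Among the tested genes with exons of at most 2548 bases in all, 7.08% were called lower and 24.7% higher, against 29.5% lower and 12.7% higher among those with 6541 bases or more. The partner subunits called higher had a median exon length of 3445 bases and those called lower one of 7299 bases, while 9 of the 10 remodeler genes, Chd4 among them, fell in the longest class and Smarca1 just below it. The part of length in these calls was not tested.

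The remaining ATPases of the Snf2 family were taken as a comparison. Of 20 genes, among them Chd1, Chd2, Chd6, Chd9, Atrx and Srcap, 1 was called lower, 3 higher and 16 neither, with a median log2 fold change of 0.075. The called shares were 5% lower and 15% higher, beside 18.9% and 18.6% over all genes tested. Those called higher were Chd1l, a remodeler recruited by poly(ADP-ribose) (0.38, SE 0.12, edgeR adjusted p = 0.0225), Chd6 (0.36, SE 0.12, edgeR adjusted p = 0.0277) and the fork-remodeling translocase Hltf (0.34, SE 0.12, edgeR adjusted p = 0.0355). Rad54l2 was called lower (-0.25, SE 0.084, edgeR adjusted p = 0.0347). None of these calls held in every fit with 1 library left out, and without dcKO replicate 3 edgeR called 4 of the 20 higher. Chd1l was not called without dcKO replicate 1 or control replicate 2, 3 or 4 (0.33 to 0.39), Chd6 without dcKO replicate 1 or control replicate 1, 3 or 4 (0.33 to 0.37), and Hltf without dcKO replicate 1, 2 or 4 or control replicate 3 or 4 (0.28 to 0.38). Rad54l2 was not called without dcKO replicate 2 or 3 or control replicate 1, 2 or 3 (-0.27 to -0.19). Without dcKO replicates 1 and 2 together edgeR called 0 of the 20 in either direction. Atrx, the most abundant by CPM, had a log2 fold change of 0.041 (95% interval -0.17 to 0.26).

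The BAF motors BRM and BRG1 are encoded by Smarca2 and Smarca4. Smarca2 was at 283, 311, 315 and 289 CPM in the controls and at 234, 234, 225 and 241 CPM in the dcKO samples, with no overlap (log2 fold change -0.36, SE 0.068, edgeR adjusted p = 0.00162). Smarca4 was at 319.7, 364, 385 and 367 CPM in the controls and at 329.6, 294, 311 and 385 CPM in the dcKO samples, which overlapped (log2 fold change -0.12, 95% interval -0.32 to 0.078, edgeR adjusted p = 0.319). Thus 1 of the BAF motor genes fell, by less on the log2 scale than either deleted gene. The estimate for Chd4 was -0.43 (SE 0.086), and its difference from Smarca2 was not tested.

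The dcKO libraries also differed from each other in a way that ran through many of these genes. Replicate 3 was the lowest dcKO sample for 7 of the 10 remodeler genes and replicate 4 the highest for 7 of the 10, and the sum of the 10 was 1845, 1869.6, 1908 and 1814 CPM in the controls and 1863, 1750.4, 1622 and 2075 CPM in the dcKO samples. The SD of Chd3 was 16.7 CPM over the controls and 86.4 CPM over the dcKO samples. For Chd5 it was 7.01 and 50.5 CPM. The difference in spread was not tested.

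Markers of cell types were read in the same libraries, since the tissue holds many; summed levels are ranges over the 4 controls, then over the 4 dcKO samples. As a background for all marker lists, 18.9% of the genes tested were called lower and 18.6% higher. The telencephalon markers Emx1 (-2.13, edgeR adjusted p = 5.31e-06) and Lhx2 (-1.51, edgeR adjusted p = 3.23e-05) were called lower. The midbrain and hindbrain markers En1, En2, Hoxa5, Hoxb5 and Hoxc6 were too low to be tested. Their summed levels were 0.092, 0.0493, 0.199 and 0 CPM in the controls and 0.898, 0.508, 0.58 and 0.664 CPM in the dcKO samples, which did not overlap. En1 had the largest means, 0.053 CPM in control and 0.434 CPM in dcKO cortex. Hoxa5 and Hoxb5 were at 0 in every control, and Hoxb5 also in dcKO replicate 2. Hoxc6 was at 0 in every dcKO sample and at 0.0332 CPM in control replicate 3, and the groups overlapped for En2. With all genes tested by DESeq2 1 of these markers was called higher, and by edgeR without a filter 3 were. In edgeR fits without dcKO replicate 2, control replicate 1 or 2, or dcKO replicates 1 and 2 together, the 1 that passed the filter was called higher. Of 8 cortical projection neuron markers 6 were called lower, among them Neurod6 (-2.04, the most abundant in control; in dcKO cortex it was Bcl11b) and Fezf2 (-1.08), and 0 higher by edgeR, also at an unadjusted p under 0.05 and by DESeq2 (0) and limma-voom (0), though 1 was higher without dcKO replicate 2. The median was -0.62, and the summed level was 1829.7, 1881, 2016 and 2002 CPM in the controls and 1090.3, 1027, 1086 and 1201 CPM in the dcKO samples. Of 6 neuron maturation markers 5 were called lower, led by Rbfox3 (-1.12), Syt1 (-0.77) and Tubb3 (-0.59, the most abundant), with a median of -0.48 and summed levels of 6751 to 7403 and 4992 to 5464 CPM, and 3 were called without dcKO replicates 1 and 2. Chd4, Gatad2a and Gatad2b were lower in the same dcKO samples as these neuron markers. Those samples were also lower in other markers, among them those of the oligodendrocyte lineage and of endothelium given below. The part of cell numbers in the fall of Chd4, Gatad2a and Gatad2b was not tested.

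Progenitor markers went in both directions. Of 7 radial glia markers Pax6 (1.28), Sox2 (0.71) and Vim (0.58) were called higher and Nes (-0.84) lower, with a median of 0.23 and summed levels of 1505 to 1547 CPM in control and 1287 to 2345 CPM in dcKO samples; Fabp7 was the most abundant. The highest sum was that of dcKO replicate 3, and without this library the median was -0.017 and 2 were called lower in place of 1. Of the intermediate progenitor markers Neurog2 (2.71, the most abundant in dcKO cortex) and Eomes (0.70, the most abundant in control) were called higher. Neurog1 was too low to be tested, and it was at 0 in every control and in dcKO replicates 2 and 4. The median of the tested markers was 1.70, and the summed levels were 4.05 to 7.92 and 16.6 to 22.2 CPM. Neurog2 was called in every fit, whereas Eomes was not called without dcKO replicate 1 (0.71) or 2 (0.63), without both (0.63), or without control replicate 2 (0.68), 3 (0.54) or 4 (0.62). All 7 interneuron markers were called higher, with Gad1 (0.87), Sst (1.02) and Dlx5 (0.85) at the smallest p. Of these 7, 6 were called without dcKO replicate 1 or 2 or control replicate 2, 3 or 4, and 5 without dcKO replicates 1 and 2 together. With the lane or the replicate number as a block, or without a filter, 6 were called. Dlx1 was the most abundant in control and Sst in dcKO cortex. The interneuron median was 0.76, with summed levels of 527 to 532 and 818 to 916 CPM. Of 8 striatal neuron markers 5 were called higher, led by Ppp1r1b (2.92, the most abundant), Tac1 (2.30) and Drd2 (2.08), with a median of 1.86 and summed levels of 122 to 175 and 364 to 703 CPM. The striatal count was the least steady of these, from 3 without dcKO replicate 1 or 3 or control replicate 3 or 4 to 7 without dcKO replicate 2, and it was 3 with the lane as a block.

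Among glial and vascular markers, all 7 of the oligodendrocyte lineage were called lower, 6 with library totals or without dcKO replicate 2 or 4 or control replicate 4 and 5 without dcKO replicates 1 and 2 together, with Sox10 (-1.50), Mbp (-0.73) and Cspg4 (-0.85) at the smallest p and Pdgfra the most abundant in dcKO cortex and Olig1 in control, a median of -0.73 and summed levels of 461 to 498 and 280.2 to 345 CPM. The paper names Pdgfra, Olig1, Olig2, Sox10 and Mbp as decreased in these same libraries, so their calls are no independent result. Of 5 astrocyte markers 1 was called lower, Slc1a2 (-0.56, the most abundant). With 1 library left out edgeR called 4 lower without dcKO replicate 3 and 0 without any of the others, and it called 3 lower with the lane as a block, as limma-voom did without one. The median was -0.56. It was -1.23 without dcKO replicate 3, -0.90 with the lane as a block and -0.33 without dcKO replicates 1 and 2 together. The summed level was 635, 674, 601 and 545 CPM in the controls and 355, 289, 833 and 317 CPM in the dcKO samples. Of 6 microglia markers 4 were called higher, led by C1qa (1.29), Aif1 (1.40) and Csf1r (0.65, the most abundant). Of these 3 were called without control replicate 3 or 4, and 2 without dcKO replicates 1 and 2. Of 5 endothelial markers 3 were called lower, Flt1 (-0.88), Kdr (-0.62) and Pecam1 (-0.65), with Cldn5 the most abundant. The medians were 0.55 and -0.62, and the summed levels were 68.7 to 95.5 and 122 to 146 CPM for microglia and 165 to 219.6 and 91.6 to 162 CPM for endothelium. Of 5 choroid plexus markers 2 were called higher, Clic6 (3.59) and Kcne2 (3.38), with a median of 3.38 and summed levels of 5.94, 12.7, 2.76 and 4.17 CPM in the controls and 609, 1165, 19.4 and 3.56 CPM in the dcKO samples, nearly all of it Ttr in dcKO replicates 1 and 2. Without either of these libraries, or without any 1 control, edgeR called 0 of them, with medians of 2.71 to 3.47. It called 3 without dcKO replicate 3 and 4 without dcKO replicate 4, while DESeq2 called 4 and limma-voom 0, and without dcKO replicates 1 and 2 together the median was 0.56.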

How the data were processed

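Raw gene counts of 8 P3 cortex libraries, 4 dcKO_hGFAP-Cre and 4 control, were analysed. Per the authors, TruSeq reads were aligned to mm10 and assigned to genes by featureCounts, and raw counts were deposited. The aligner, gene annotation and strand setting are not given in the sources used here, so counts of genes that overlap or have copies are uncertain. Symbols, coordinates and exon lengths came from GENCODE M21, which matched 48349 of 48709 identifiers. edgeR 4.0.16 (R 4.3.3) tested all 16525 genes kept by its filter (minimum count 10) with the robust quasi-likelihood F test, TMM scaling and no block. Intervals used the fold change, its F statistic and the fitted degrees of freedom; they hold no multiple-test adjustment. Total counts ranged from 21126713 to 32110285, where 3 counts are at most 0.142 CPM. No 2 replicates agreed within sampling noise. DESeq2 1.42.0, limma-voom (limma 3.58.1) and other scalings, filters, blocks and left-out samples were the alternatives. The statistics were tested on simulated data, where changed genes at low CPM were often missed, so a gene of low CPM that is not called may still differ. Log2 CPM used a prior count of 2. The members and gene lists were chosen with earlier results of these data known. Besides the members, Smarcc1, Smarcc2, Smarca2 and Smarca4, a list's named genes were up to 3 with the smallest p called lower and up to 3 called higher, its most abundant gene (in either group) and its untested genes, and the 5 genes most correlated with the called member that fell most.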

Additional observations from a re-analysis of the deposited data

Results flagged for a closer look

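Values given for every sample were checked within each group of 4 for a sample far from the others, by its gap to the nearest sample over the range of the group. Of 74 such groups, 3 held one, where about 3.7 are met by chance, and none of the 20 groups of remodeler gene values did. Gfap was at 273 CPM in dcKO replicate 3, a gap of 96.8% of the range of the dcKO group. The summed level of the astrocyte markers in the same library was 833 CPM, a gap of 87.9%. The summed level of the striatal neuron markers was 175 CPM in control replicate 2, a gap of 90.6%. Without dcKO replicate 3, Smarca1 and Hells were called higher, as given above, and Chd4 was still called lower, with a log2 fold change of -0.40. The cause was not tested.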

How the results depend on the processing

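Each remodeler gene was refitted under 17 alternatives. Of these 170 values 149 kept their sign and their side of the threshold, 0 were no longer called, 6 became called and 15 changed sign. Chd4 was called lower in all 17, with log2 fold changes from -0.47 to -0.30; every change of sign was in a gene that no alternative called. With library totals, which shift all genes up, Chd7 (0.37, edgeR adjusted p = 0.0381), Smarca1 (0.34, 0.0177) and Hells (0.42, 0.0218) were called higher, 3 in place of 0, and Chd8 (0.087), Ino80 (0.057) and Ep400 (0.10) turned positive. Under the same scaling 3 of the 10 did not overlap between groups in place of 1. Of the other Snf2-family ATPases 0 were then lower and 5 higher, and of the partner subunits 2 were lower and 19 higher. DESeq2 gave Chd5 -0.0052 and Smarca5 -0.0024.

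Leaving out 1 library at a time, log2 fold changes ran from -0.024 to 0.075 for Chd3, -0.071 to 0.075 for Chd5, 0.17 to 0.39 for Chd7, -0.10 to 0.043 for Chd8, 0.15 to 0.28 for Smarca1, -0.070 to 0.073 for Smarca5, -0.11 to 0.00056 for Ino80, -0.072 to 0.038 for Ep400 and 0.24 to 0.37 for Hells. Chd3 turned negative without dcKO replicate 4 (-0.024), Chd5 without dcKO or control replicate 4 (-0.071, -0.0055), Smarca5 without dcKO replicate 2 or control replicate 1 or 4 (-0.038, -0.070, -0.0063), and Chd8, Ino80 and Ep400 positive without dcKO replicate 3 (0.043, 0.00056, 0.038). Remodeler genes called higher ran from 0 to 2, other Snf2-family ATPases from 0 to 1 lower and 0 to 4 higher, and partner subunits from 2 to 5 lower and 12 to 15 higher. Without dcKO replicates 1 and 2, chosen after seeing the data, genome-wide calls were 1581 lower and 1388 higher, other Snf2-family ATPases 0 and 0, partner subunits 2 and 6, and Smarca5 -0.018; fewer samples were fitted. With coding length in place of exon length the share of Chd3 was 56.3% in control and 59.3% in dcKO cortex and that of Chd5 26.1 and 27.1%, while Chd4 kept its place below the controls in every dcKO sample. Causes were not tested.

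Same-numbered libraries shared a lane, and they correlated at 0.171, -0.068, 0.213 and -0.024 in their deviations from the group means. The other pairs ran from -0.314 to 0.255. With 4 samples a group, these values cannot decide whether the replicate numbers pair the samples. With the replicate number as a block, genome-wide calls were 2982 lower and 2932 higher, 0 other Snf2-family ATPases were lower in place of 1, and the log2 fold change of Chd4 was -0.43 (edgeR adjusted p = 0.00603). Depth limits Hells most of the 10, though even for it a library held 222 or more counts.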
